A study of Mus musculus with 3 samples.

Results

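The oligodendrocytes of the mouse olfactory bulb (OB) are described here as they appeared in single-nucleus RNA sequencing (snRNA-seq) of sorted nuclei. The study had divided its nuclei into 22 numbered clusters and deposited the numbers without cell type names. The oligodendrocyte cluster was the cluster with the highest summed level of Mog, Mag and Mobp, 3 genes of the myelin sheath, so its members were chosen on measured values. This was cluster 16, which held 282 of 31703 nuclei. The pooled level of the 3 genes was 4654 unique molecular identifiers (UMIs) per 1000000 UMIs (CPM) in cluster 16. It was 378 CPM in cluster 19 and 40.6 CPM in cluster 21, the next clusters in order.

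The study compared projection neurons of the OB, and the oligodendrocytes came along in its sort. Adult male C57Bl/6 mice received a retrogradely transported virus, rAAVretro-CAG-H2B-GFP, in 2 targets of the OB, the piriform cortex (PCx) and the anterior olfactory nucleus (AON). Nuclei of the OB were sorted for the nuclear green fluorescent protein and the DNA dye DRAQ5, and 1 library was made from each of 3 mice. All mice belonged to 1 group, so no treatment could be compared, and the share of a glial cell type after this sort is not its share in the tissue. Nuclei hold little cytoplasmic RNA, so the levels below are levels of nuclear transcripts.

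Oligodendrocytes wrap axons of the central nervous system in myelin, a stack of membrane held together by proteins such as myelin basic protein and made mostly of lipid. They arise from dividing precursors that carry the receptor Pdgfra, pass through a newly formed stage marked by genes such as Gpr17, Bcas1 and Enpp6, and then switch on the genes of compact myelin. The factors Sox10, Olig1, Olig2 and Myrf direct this course. In the OB, they myelinate axons such as those by which mitral and tufted cells leave toward the cortex.

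The sequence before the start site is shown for 5 of the genes that set the cluster apart most, as the place where the lineage factors could be looked for. Mobp, Mog and Mag chose the cluster, and Cnp and Hapln2 are further myelin genes, chosen after the search because their windows held letters of more than 1 motif. Each window has the 250 bases before a RefSeq start site (GRCm38.p6), is written 5′ to 3′ on the strand of the gene, and has motif letters in capitals. The letters searched on both strands were ACAATG or ACAAAG for the SOX family, CTGGCAC or CTGGTAC for Myrf and CAGCTG for an E-box, as Olig factors prefer. None of these letter strings lies within another. The windows were chr9:120149492-120149741 on the plus strand for Mobp, chr17:37023399-37023648 on the minus strand for Mog and chr7:30914923-30915172 on the minus strand for Mag. Those of Cnp and Hapln2 were chr11:100574689-100574938 on the plus strand and chr3:88027512-88027761 on the minus strand.
Mobp: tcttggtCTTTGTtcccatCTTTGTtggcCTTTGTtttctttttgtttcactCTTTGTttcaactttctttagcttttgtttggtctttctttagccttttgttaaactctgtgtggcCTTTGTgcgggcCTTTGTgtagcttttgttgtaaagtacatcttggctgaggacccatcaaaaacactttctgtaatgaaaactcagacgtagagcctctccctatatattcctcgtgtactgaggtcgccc
Mog: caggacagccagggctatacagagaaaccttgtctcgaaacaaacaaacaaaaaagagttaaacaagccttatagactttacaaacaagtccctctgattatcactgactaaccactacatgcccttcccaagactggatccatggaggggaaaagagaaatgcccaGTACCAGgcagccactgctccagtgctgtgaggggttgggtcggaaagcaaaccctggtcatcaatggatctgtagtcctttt
Mag: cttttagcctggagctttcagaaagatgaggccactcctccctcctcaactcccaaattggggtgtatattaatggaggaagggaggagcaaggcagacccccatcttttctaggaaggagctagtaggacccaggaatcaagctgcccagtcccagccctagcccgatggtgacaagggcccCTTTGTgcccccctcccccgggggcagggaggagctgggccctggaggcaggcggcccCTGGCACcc
Cnp: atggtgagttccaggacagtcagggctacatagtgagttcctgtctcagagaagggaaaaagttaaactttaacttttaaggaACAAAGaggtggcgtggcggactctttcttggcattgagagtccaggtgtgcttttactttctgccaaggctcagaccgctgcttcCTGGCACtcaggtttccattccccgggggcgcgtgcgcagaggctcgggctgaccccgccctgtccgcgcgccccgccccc
Hapln2: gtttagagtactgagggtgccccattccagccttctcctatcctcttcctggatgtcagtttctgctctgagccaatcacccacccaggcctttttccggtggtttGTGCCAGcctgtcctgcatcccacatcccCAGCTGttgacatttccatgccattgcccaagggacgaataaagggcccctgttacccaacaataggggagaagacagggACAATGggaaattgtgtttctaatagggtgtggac

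The Mobp window held the SOX letters 6 times, all as CTTTGT, the complement. The first lay 243 bases and the last 120 bases before the start. Mag has 3 windows, of which that at chr7:30914322-30914571 held none of the letters, and the one shown was chosen for holding some. It held SOX and Myrf letters 67 and 9 bases before the start, and the Mog window held Myrf letters 83 bases before it. Over the 20 genes with the largest ratio to the other clusters, 15 had a RefSeq window, with 20 windows in all. SOX letters occurred in 11 of these 20 windows (55.0%), against 25.2% of all 32851 windows. Myrf letters occurred in 5 of 20 (25%), against 5.93% of all windows, and the E-box in 3 of 20 (15%), against 13.0%. Without the windows of Mog, Mag and Mobp, which chose the cluster, the 3 motifs occurred in 8, 2 and 3 of 15 windows. Over the 291 windows of all genes counted as enriched below, the shares were 22.7%, 8.59% and 14.8%, and over the 11167 windows of all genes compared there 17.5%, 5.53% and 11.8%. Some of the 20 windows belong to 1 gene and overlap, as those of Mag do. A match of letters is a description and not a site.

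The cluster was found in each mouse, with 54 of 5845, 207 of 21105 and 21 of 4753 nuclei of mice 1, 2 and 3. Its share was 0.924% (exact 95% interval 0.695 to 1.20%), 0.981% (0.852 to 1.12%) and 0.442% (0.274 to 0.675%). The interval of mouse 3 lay below those of the other mice. The intervals cover counting error only. The nuclei held 313083, 1664264 and 139914 UMIs in all, and the median nucleus had 4608, 5691 and 5489. Over all retained nuclei the medians ran from 7940 to 10568 UMIs, so the median oligodendrocyte nucleus lay below them in each mouse. Mouse 2 gave 207 of the 282 nuclei, and means over mice below weight the 3 mice equally. Between libraries, 90 called barcodes were shared by mice 1 and 2, 17 by mice 1 and 3 and 77 by mice 2 and 3. Of the barcodes shared by mice 1 and 2, 2 were in the oligodendrocyte cluster of one mouse and in no case in that of both.

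The label was checked against marker lists of 7 cell types. All 15 oligodendrocyte markers (among them Mbp, Cnp, Cldn11, Ermn and Myrf) had UMIs in the cluster, and their summed level was 42487, 20511 and 25323 CPM in mice 1, 2 and 3. The list includes Mog, Mag and Mobp, which chose the cluster, and the other 12 markers summed to 33228, 16769 and 20134 CPM. The 8 precursor markers summed to 236 to 486 CPM, against 11116 to 12378 CPM in cluster 19. That cluster was picked for the highest summed level of Pdgfra, Cspg4 and Vcan, which are among the 8. It is called the precursor-like cluster. The 10 astrocyte markers summed to 336 to 430 CPM, against 6752 to 10791 CPM in cluster 9, the astrocyte-like cluster. The 10 microglia markers summed to 64.3 to 72.1 CPM, against 5363 to 15222 CPM in cluster 20, and the 12 vascular markers to 7.15 to 33.6 CPM. Clusters 9 and 20 were picked in the same way, by some of the astrocyte and microglia markers. Olfactory ensheathing cells are glia that share Sox10 with oligodendrocytes. Their 10 markers summed to 1908 to 2670 CPM here, against 22615 to 46725 CPM in cluster 11, and 2 of the 10 had no UMI in the oligodendrocyte cluster. The 12 neuron markers summed to 1399, 4442 and 1215 CPM in mice 1, 2 and 3, against 8790 to 9742 CPM in the neuron clusters. They lay above the ensheathing markers only in mouse 2, where those summed to 2106 CPM.

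**Figure D1:**
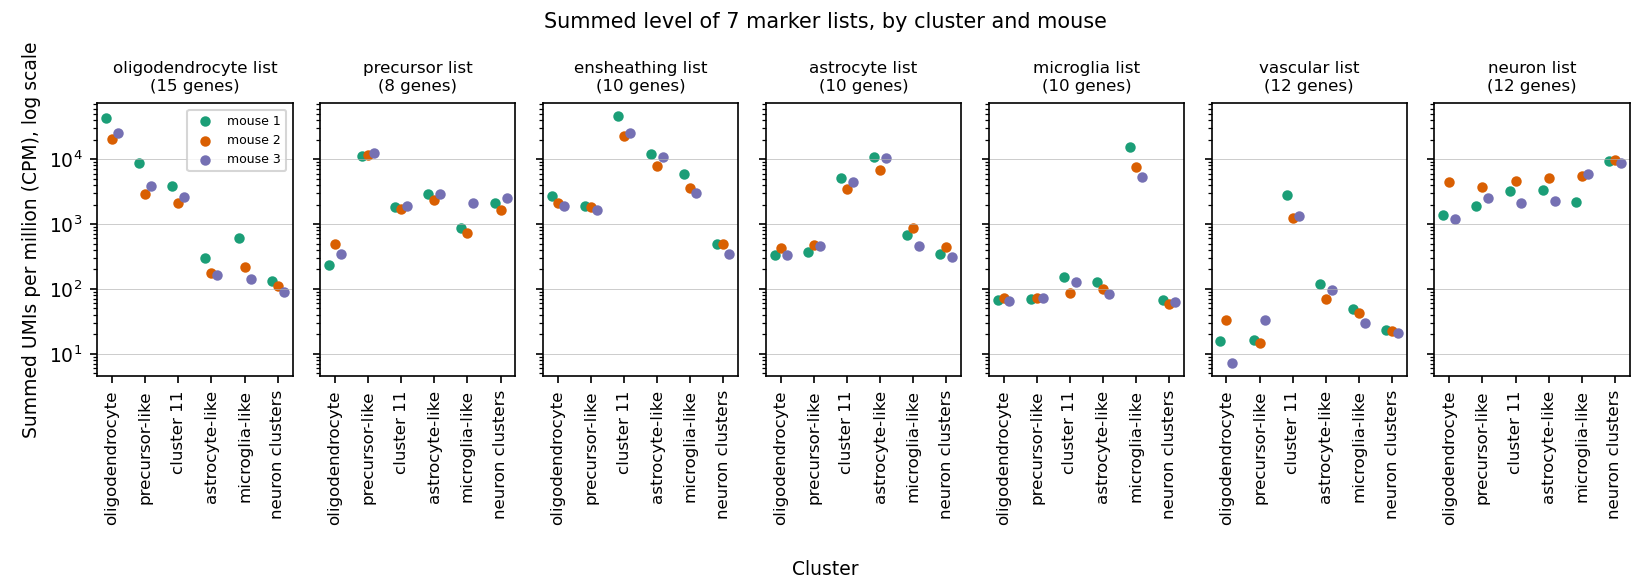
Summed level in CPM (log scale) of 7 marker lists in the oligodendrocyte cluster and in 5 other clusters or groups of clusters. Each point is 1 mouse. The oligodendrocyte list, at 20511 to 42487 CPM in its cluster, includes the 3 genes that chose the cluster, and the neuron list reaches 4442 CPM in its nuclei of mouse 2.

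The neuron signal was not spread evenly over nuclei. In 62 of the 282 nuclei, the 12 neuron markers made up at least 4000 CPM, a cut set after the values had been seen. The neuron clusters are those whose median nucleus reached this cut, and at least 96.2% of their nuclei lay above it in each mouse. These nuclei were 3 of 54 in mouse 1, 58 of 207 in mouse 2 and 1 of 21 in mouse 3. Near the cut, 1, 9 and 1 nuclei of mice 1, 2 and 3 lay between 3000 and 4000 CPM and 1, 6 and 0 between 4000 and 5000. In mouse 2 the median of these nuclei was 11891 UMIs and that of the others 5003. Their oligodendrocyte markers summed to 9699 CPM, against 30683 CPM in the other nuclei of the same mouse. Syt1, a synaptic vesicle protein, was at 2339 CPM in them and at 327 CPM in the others, and Meis2, a factor of OB interneurons, at 2276 and 273 CPM. Both genes are among the 12 that the cut was set on, so these values describe the split and do not support it.

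Nuclei above the cut were found in the other glial clusters too. In mouse 2 it was 28.0% of the oligodendrocyte cluster, 23.1% of the precursor-like, 32.8% of the astrocyte-like, 29.6% of cluster 11 and 40.8% of the microglia-like cluster. In mouse 1 it was 5.56%, 6.00%, 12.8%, 14.1% and 10.53%, and in mouse 3 it was 4.76%, 20%, 8.90%, 8.87% and 20.8%, in the same order. The oligodendrocyte cluster had the lowest share of the 5 in mice 1 and 3, and the precursor-like cluster in mouse 2. The sort gate had been set on single nuclei, and no doublet caller was run here. Whether droplets with 2 nuclei account for these 62 nuclei was not tested. Counts without them are given below for all genes and for the lists where they differ. Without them the mean share of the cluster was 0.666% ± 0.228 (SD, n = 3), against 0.782% ± 0.296 with them.

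**Figure D2:**
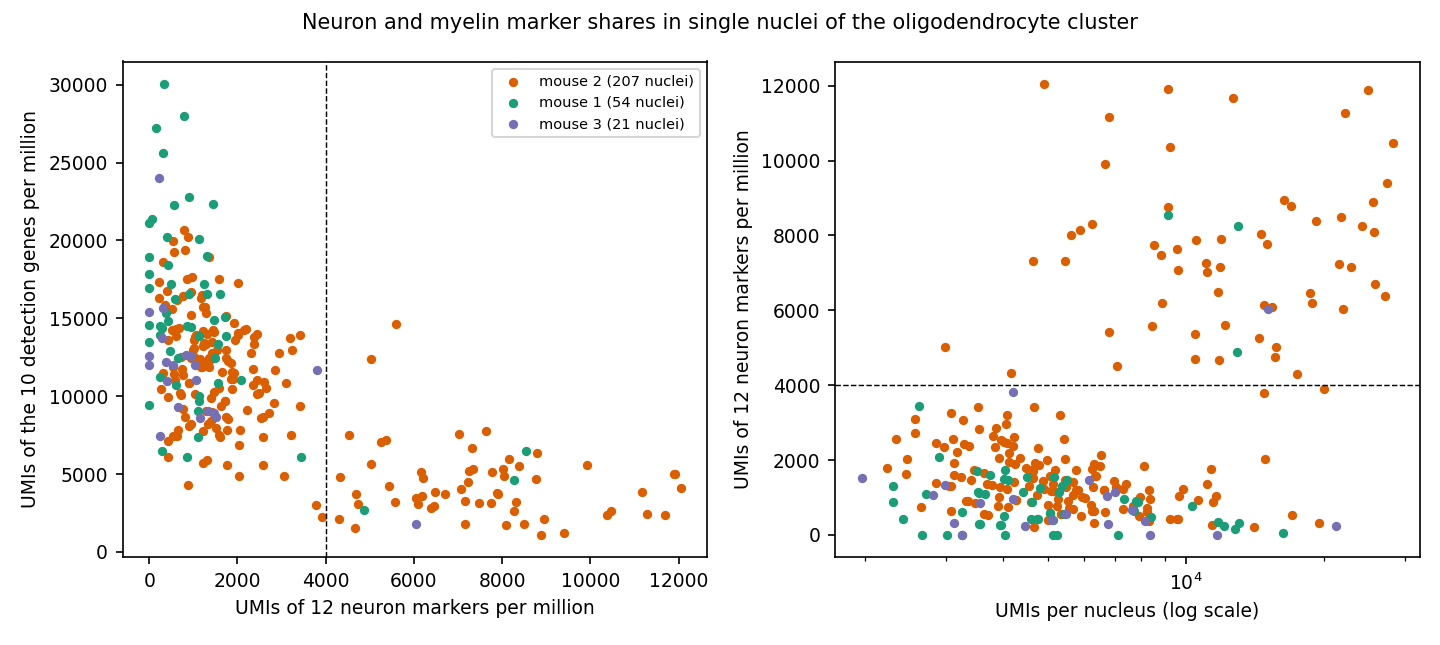
Left, the share of 10 oligodendrocyte genes (CPM) against that of 12 neuron markers (CPM) in each of the 282 nuclei, coloured by mouse. Right, the neuron marker share against UMIs per nucleus (log scale); the dashed lines mark 4000 CPM, with 58 of the 62 nuclei above it from mouse 2.

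Gene levels were compared with the mean of the other 21 clusters. The clusters had been formed on these same genes, so the comparison is a description and carries no test. A gene was counted as enriched where its level, with 5 CPM added to both sides, was at least 4-fold above that mean in each of the 3 mice. Of 11164 genes past the filter of 10 CPM, 282 were enriched (2.53%), a number that equals the number of nuclei by coincidence, and 66 were at least 4-fold below (0.591%). The number below was 730 without mouse 2, and against the pooled UMIs of all other nuclei 11 of the 66 remained. Without the nuclei of high neuron share, 346 of 11225 genes were enriched (3.08%) and 642 were below (5.72%). All 282 enriched genes remained so without those nuclei, and 60 of the 66 lower genes did. Unless a mouse is named, a level given below for another cluster is the mean of the 3 mice.

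Mobp, a small protein of compact myelin, had the largest ratio to the other clusters. It was at 3376, 1539 and 2509 CPM in mice 1, 2 and 3, against a mean of 5.35 CPM elsewhere, 240-fold on the scale with 5 CPM added. Mog, a protein of the outermost myelin surface, was at 2070, 1088 and 1429 CPM against 7.89 CPM (119-fold), and Mag, which binds the axon across the innermost layer, at 3814, 1115 and 1251 CPM against 19.5 CPM (84.2-fold). These 3 genes chose the cluster. With all nuclei, mouse 1 was highest and mouse 2 lowest for each of them. Every mouse lay above the highest other cluster, which was the precursor-like one. Without the nuclei of high neuron share, Mog, Mag and Mobp were at 1624, 1685 and 2406 CPM in mouse 2. They were then at 1546, 1378 and 2756 CPM in mouse 3, so that mouse 3 was lowest for Mog and Mag.

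The other leading genes had not been part of the rule. Prr5l, a protein tied to the kinase complex mTORC2 and placed between Mog and Mag by its ratio, was at 984, 1035 and 1308 CPM, against 4.40 CPM in the other clusters (119-fold). The gene Gm13905 overlaps it on the opposite strand. Mal, a proteolipid of membrane sorting, was at 2242, 1300 and 943 CPM (76.3-fold). Hapln2, a link protein of the matrix at the node of Ranvier, was at 431, 271 and 436 CPM against 0.631 CPM (68.3-fold). Ermn, a cytoskeletal protein of mature oligodendrocytes, was at 476, 354 and 450 CPM (61.3-fold), with Galnt5 on the opposite strand. The choice of these genes required that each be highest in the cluster in each mouse. The 20 leading genes also included Tspan2, Cldn11, Gpr37, Opalin, Cryab, Ppp1r14a, Cnp, Fa2h and Plekhh1 and 3 long noncoding RNAs, AC110241.2, Gm4593 and C030029H02Rik. AC110241.2 was at 383, 299 and 600 CPM, against 0.656 CPM elsewhere (76.5-fold), and has Gm33255 on the opposite strand. All 20 were enriched also without the nuclei of high neuron share.

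**Figure D3:**
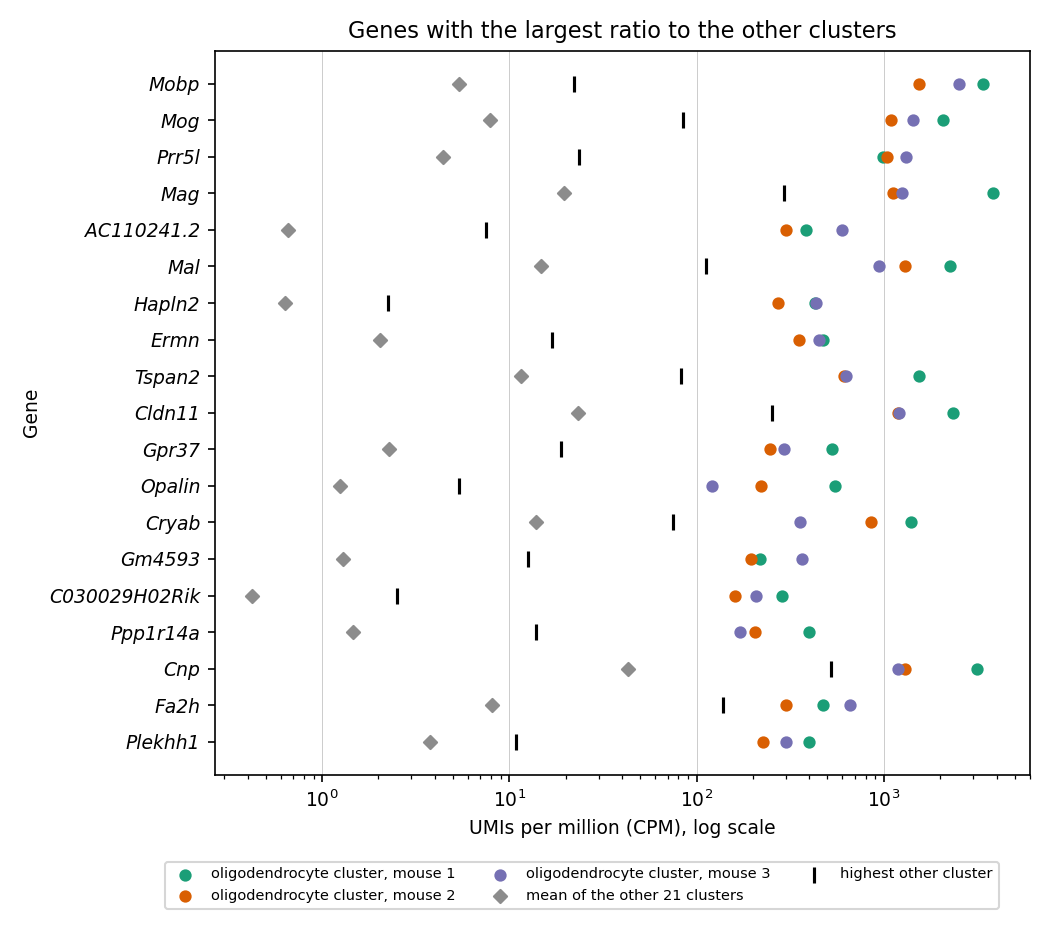
Level in CPM (log scale) of 19 of the 20 genes whose ratio to the other 21 clusters was largest, with 1 coloured point per mouse, the mean of the other clusters as a diamond and the highest other cluster as a bar. For each gene the 3 mice lie to the right of the bar. Mobp, in the top row, is at 1539 to 3376 CPM.

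Of 28 genes of myelin structure, 26 passed the filter, 21 were enriched and none was at least 4-fold below. Their median log2 ratio was 4.64, against -0.18 over all genes past the filter, of which 2.53% were enriched. Without Mog, Mag and Mobp, whose enrichment the rule fixed, 18 of 23 were enriched and the median was 4.39. Mbp, which holds the inner membrane faces together, was at 5385, 2941 and 4617 CPM, and at 1819 CPM in the precursor-like cluster, the next highest. Cldn11, the claudin of the radial seal of myelin, was at 2354, 1184 and 1201 CPM, against 253 CPM in the precursor-like cluster, the next highest, which had 492 CPM in mouse 1. Opalin was at 549, 221 and 122 CPM, so its levels spread over more than 4-fold among the mice. Sirt2 and Cd9 were past the filter but higher in the precursor-like cluster, Cd9 with 317 CPM here and 1259 CPM there.

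Enzymes of myelin lipid formed the next group. Of 23 genes of galactolipid and fatty acid metabolism, all passed the filter, 9 were enriched and none was 4-fold below, with a median log2 ratio of 1.54. Over all genes 2.53% were enriched. The enriched ones included the enzymes of galactolipid itself. Ugt8a, which adds galactose to ceramide, was at 968, 554 and 729 CPM (26.3-fold), and Fa2h, which hydroxylates the fatty acid of these lipids, at 473, 300 and 658 CPM (36.9-fold). Gal3st1, which makes sulfatide, was at 297, 112 and 279 CPM (14.9-fold). Aspa, which frees acetate from N-acetylaspartate, was at 993, 693 and 1036 CPM (22.2-fold), with its highest other level, 535 CPM, in cluster 11. The 9 did not include Fasn or Acaca, the enzymes that build fatty acids from acetyl groups, with ratios of 2.07 and 2.43.

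Cholesterol synthesis is the other lipid pathway listed. Of 22 genes, 18 passed the filter and none was enriched, where the share over all genes was 2.53%, with a median log2 ratio of 1.12. Hmgcs1, an early enzyme of the pathway, was at 137, 94.3 and 300.2 CPM against 41.0 CPM (3.96-fold), and Idi1 at 38.3, 54.1 and 129 CPM (3.86-fold). Fdps, another enzyme of the pathway, was nearly absent from the tables of every cluster, with 0.539 CPM in the highest, and cannot be read here.

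Lineage factors formed the next list. Of 20 genes, 19 passed the filter, 6 were enriched (St18, Nkx6-2, Myrf, Zfp536, Olig1 and Sox10) and 1, Sox5, was 4-fold below. The shares over all genes were 2.53% and 0.591%, and nothing is read from the count of 1. St18, a zinc finger factor, was at 2143, 1579 and 3116 CPM, and the precursor-like cluster, the next highest, at 985 CPM. Nkx6-2, a homeodomain factor of late oligodendrocytes, was at 265, 154 and 179 CPM, against 8.66 CPM in the precursor-like cluster, the next highest. Myrf was at 243, 132 and 236 CPM and at 76.7 CPM in the precursor-like cluster. Olig2 and Sox10 had higher levels in the precursor-like cluster in each mouse, and Olig1 in mice 2 and 3 (366 and 415 CPM here, 576 and 628 CPM there). In mouse 1 Olig1 was at 929 CPM here and at 745 CPM there. Sox10 was at 450, 251 and 214 CPM here and at 550 CPM there, and cluster 11, with 519, 341 and 569 CPM, was also above the oligodendrocyte cluster in each mouse. Sox6 and Sox5, factors of the precursor state, were at 14.7 and 62.9 CPM in the mean of the 3 mice.

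Channels and gap junctions link myelin to axons and to astrocytes. Of 17 such genes, all passed the filter, 6 were enriched and 1, the receptor subunit Gabrb1, was below. Over all genes past the filter, 2.53% were enriched and 0.591% below, and nothing is read from the count of 1. The connexin Gjb1 was at 92.6, 106 and 114 CPM, against 14.1 CPM in cluster 11, the next highest. Slc24a2, a sodium, calcium and potassium exchanger, was at 2552, 1828 and 3109 CPM (14.7-fold), and Slc12a2, a chloride importer, at 997, 572 and 800.5 CPM (10.48-fold). The connexin Gjc3 was at 721 CPM here in the mean and at 988 CPM in the precursor-like cluster. Slc16a1, the lactate carrier, was not enriched, with 60.7, 27.6 and 35.7 CPM against 13.3 CPM (2.53-fold). Gria2 and Grin1, subunits of glutamate receptors, had their lowest mean over mice of all 22 clusters here, 384 and 84.2 CPM.

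Of 22 genes of the cytoskeleton and process outgrowth, all passed the filter and 15 were enriched, with a median log2 ratio of 2.55. The enriched share over all genes past the filter was 2.53%. Tubb4a, a tubulin of myelinating cells, was at 1584, 966 and 1136 CPM (15.3-fold), and Map7, a microtubule binding protein, at 1220, 896 and 1115 CPM (14.7-fold). Of 20 genes of adhesion and axon contact, all passed and 5 were enriched, against the same 2.53%. Pcdh9, a protocadherin, was at 13699, 10081 and 12594 CPM, against 4959 CPM in the next cluster, and Tmeff2, a transmembrane protein, at 4405, 4040 and 5746 CPM against 1598 CPM. Nfasc, which in glia anchors the paranode, was at 1418, 520 and 886 CPM and higher in the precursor-like cluster (1544 CPM). Nrcam had its lowest mean over mice of all clusters here, 107 CPM.

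Of 20 genes of growth factors and their receptors, 17 passed the filter and 4 were enriched, against 2.53% over all genes past it. Gpr37, an orphan receptor of oligodendrocytes, was at 530, 245 and 293 CPM (49.5-fold). S1pr5, a receptor for sphingosine 1-phosphate, was at 105, 66.7 and 85.8 CPM (13.6-fold), and Lpar1, for lysophosphatidic acid, at 332, 147 and 329 CPM (7.29-fold). The fourth was Lgi3. Enpp2, which makes lysophosphatidic acid outside the cell, was at 1594, 963 and 1708 CPM (25.7-fold). The receptor Erbb3 had an uneven level, 201 CPM in mouse 1 and 39.1 and 28.6 CPM in mice 2 and 3, and was not counted as enriched. Erbb2 had no UMI in the cluster.

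Of 14 immune and stress genes, 4 passed the filter and none was enriched, which is little to read against 2.53% over all genes, and B2m was at 35.1, 36.7 and 0 CPM, against 432 CPM in the microglia-like cluster. Serpina3n and C4b, genes seen in reactive oligodendrocytes, were at 0.200 and 4.93 CPM in the mean of the mice. Of 8 immediate early genes, 7 passed the filter and none was enriched, likewise few genes to read, and Fos and Npas4 had their lowest mean over mice of all clusters here, 5.61 and 0.801 CPM. Of 10 long noncoding RNAs listed, 8 were in the tables and 1, Neat1, was enriched, at 604, 460 and 758 CPM (16.9-fold). Malat1, a noncoding RNA kept in the nucleus, was at 116206, 130216 and 178088 CPM. Within mice 1 and 3 this was the highest of the clusters, and in mouse 2 cluster 6 (131119 CPM) and cluster 15 (130531 CPM) lay above it.

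Without the nuclei of high neuron share, the enriched genes became 23 for myelin structure, 10 for galactolipids, 8 for lineage factors, 16 for the cytoskeleton, 6 for axon contact and 2 for long noncoding RNAs. Those at least 4-fold below became 3 for channels, 2 for growth factors, 1 for axon contact, 1 for immediate early genes and 3 for long noncoding RNAs. Over all genes the share below was then 5.72%, and nothing is read from the counts of 1 or 2 in such short lists.

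The 5 genes at least 4-fold below the other clusters with the highest level there were Galntl6, Nxph1, Lhfpl3, Gabrb1 and Gm26905. Galntl6, a glycosyltransferase, was at 345, 749 and 1029 CPM, against 3930 CPM in the other clusters, and Gm26905 lies opposite to it. Lhfpl3, a precursor gene, was at 51.1, 232 and 257 CPM against 1052 CPM. Meg3 and Snhg11, genes known from neurons, had their lowest mean over mice of all 22 clusters here, though Meg3 was above the precursor-like cluster in mouse 3 and Snhg11 in mouse 2. Meg3 was at 217, 1741 and 1551 CPM with all nuclei, and at 307 CPM in the mean of the mice without the nuclei of high neuron share, against 5185 CPM in the other clusters. Meg3 counted as 4-fold below only without those nuclei.

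The precursor-like cluster, with 151 nuclei (50, 91 and 10 per mouse), was compared as the earlier stage of the same lineage, a name it has from its precursor markers. Of 10913 genes past the filter, 180 were at least 4-fold higher in the oligodendrocyte cluster in each mouse (1.65%) and 187 at least 4-fold lower (1.71%). Without the nuclei of high neuron share in either cluster the numbers were 245 and 363, of 10871 genes. Among myelin genes 15 of 26 were higher and none lower, and among precursor genes 10 of 12 were lower and none higher. Without Mog, Mag and Mobp, 12 of 23 myelin genes were higher, with a median log2 ratio of 2.62. Of the 12 precursor genes, 8 are also markers of the precursor-like cluster, and of the other 4, 2 were lower. Among newly formed stage genes 4 of 14 were lower, and among mature stage genes 10 of 14 were higher. Without the nuclei of high neuron share, 11 precursor genes and 5 newly formed stage genes were lower. Over all genes past the filter the median log2 ratio was -0.15, and over these 4 lists it was 2.76, -4.83, -2.33 and 4.19.

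Mal had the largest ratio, with 2242, 1300 and 943 CPM here and 7.03, 7.34 and 0 CPM in the precursor-like cluster. Prr5l, Aspa, Mobp and Ermn came next, each with at most 35.2 CPM there in any mouse. Mbp was less far apart. It was at 2787, 1014 and 1655 CPM in the precursor-like cluster, a ratio of 2.37, and was not counted as higher. In the other direction, Gm4876 had the largest ratio, with 0, 2.40 and 0 CPM here and 520.4, 651 and 726 CPM there. Pdgfra, the receptor that defines precursors, was at 0, 1.20 and 0 CPM here and at 490, 507 and 750.2 CPM there. It is among the genes that picked the precursor-like cluster, so its high level there was fixed by that choice. Neu4 (a sialidase), Sox6 and Xylt1 (which starts proteoglycan chains) were the next largest. Neu4 had no UMI in the oligodendrocyte cluster, and its level in the precursor-like cluster was 361 CPM.

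Bcas1, Enpp6 and Gpr17, genes of the newly formed stage, had higher levels in the precursor-like cluster in each mouse, but of the 3 only Gpr17 passed 4-fold in each. Gpr17 was at 51.1, 3.004 and 35.7 CPM here and at 539, 226 and 253 CPM there, and Bcas1 at 594, 403 and 507 CPM and at 2419, 1582 and 1721 CPM. Tcf7l2, a factor of that stage, was at 116 CPM here in the mean of the mice and at 979 CPM there. The precursor-like cluster held genes of the newly formed stage beside those of dividing precursors, and its oligodendrocyte marker sum of 8622, 2901 and 3857 CPM lay below that of the oligodendrocyte cluster in each mouse.

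**Figure D4:**
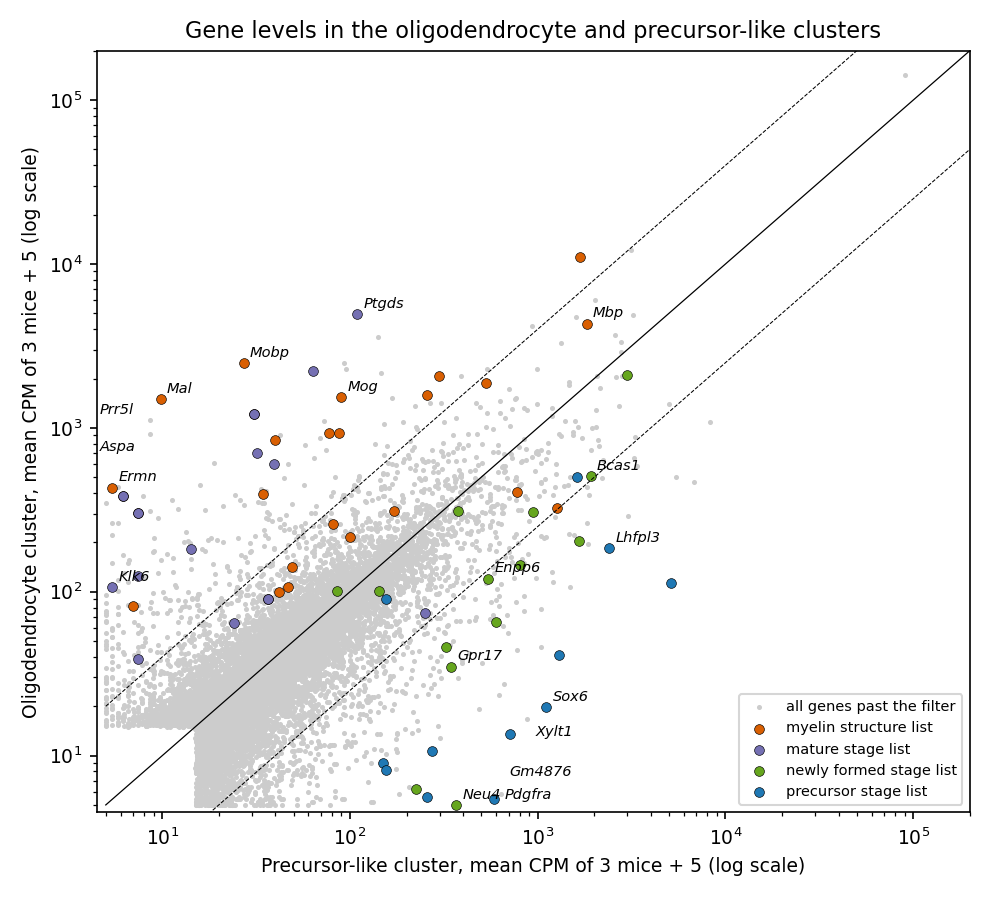
Mean level over 3 mice in the oligodendrocyte cluster against that in the precursor-like cluster, with 5 CPM added to each (log scales). Each point is a gene past the filter. The solid line marks equal levels and the dashed lines 4-fold differences; myelin and mature stage genes lie mostly above the upper line, and Pdgfra and Neu4 at the lower edge.

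The nuclei of the cluster also differed among themselves. Mbp had a UMI in each of the 282 nuclei. The largest neuron cluster had 1301, 5438 and 942 nuclei in mice 1, 2 and 3, of which 500 per mouse were taken. All shares of nuclei given for it rest on these numbers. Mbp had a UMI in 10.4%, 11.6% and 10.2% of the nuclei taken. After each nucleus was thinned to 1500 UMIs, Mog was seen in 87.0%, 72.9% and 85.7% of oligodendrocyte nuclei of mice 1, 2 and 3. In the nuclei taken from the largest neuron cluster, a cell type that should lack the gene, it was seen in 0.2%, 0.8% and 0.4%. The source of those UMIs was not tested. Unthinned, these shares were 100%, 97.1% and 100% and 1.6%, 2.4% and 1.4%. Ptgds, which makes prostaglandin D2 and is a gene of mature oligodendrocytes, had a wide range. In mouse 2 it ran from 0 to 56281 CPM, with a median of 1429 and no UMI in 21 nuclei. In mouse 1 the range was 0 to 45352 with a median of 4510, and in mouse 3 it was 0 to 31187 with a median of 1842. Its mean in the cluster, 4933 CPM, was below that of cluster 18 (18101 CPM). Ptgds was not counted as enriched because its ratio to the other clusters, 5.76 and 5.25 in mice 1 and 2, was 3.84 in mouse 3.

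Klk6, a secreted protease of some mature oligodendrocytes, was seen in a part of the nuclei, and Ptgds was low there. Klk6 lies at chr7:43824499-43832030 on the plus strand (GRCm38, GENCODE vM21), and Ptgds at chr2:25466709-25470046 on the minus strand. Klk6 was at 131, 66.7 and 107 CPM in the cluster and at most at 2.54 CPM in the mean of any other cluster. Among the 220 nuclei of low neuron share it had a UMI in 6 of 51, 33 of 149 and 5 of 20. After thinning, Klk6 was seen in 13.0%, 10.1% and 19.0% of all nuclei of the cluster. In the 500 nuclei per mouse taken from the largest neuron cluster it was seen in 0.2%, 0% and 0%, and unthinned in 0.4%, 0% and 0.2%. Over all nuclei of that neuron cluster Klk6 was at 0.521, 0.245 and 0.219 CPM. The thinning is a random draw. A separate draw over the nuclei of low neuron share gave 11.8%, 12.8% and 5.0%, so the value of mouse 3, with few nuclei, is not settled. The split of nuclei by Klk6 was chosen after the values had been seen, so what follows is a description without a test. The median UMI numbers of nuclei with Klk6 were 3984, 5062 and 6760, and of those without it 4596, 4996 and 4455.

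Ptgds was at 785, 1496 and 67.1 CPM in the nuclei with Klk6 of mice 1, 2 and 3. It was at 9324, 7623 and 3726 CPM in those without it, so that each mouse had the lower level with Klk6. The long noncoding RNA 9630013A20Rik, at chr14:84458639-84476424 on the minus strand, was at 0, 5.54 and 0 CPM with Klk6 and at 2530, 1025 and 5652 CPM without. Kirrel3, an adhesion protein of the immunoglobulin family, was at 39.2, 188 and 67.1 CPM with and at 1437, 947 and 1495 CPM without. These 3 genes were at least 4-fold lower with Klk6 in each mouse, with 50 CPM added, out of 909 genes with a mean of at least 200 CPM (0.33%). With the nuclei of high neuron share kept, 1 gene was. No gene was 4-fold higher in each mouse (0%). Pcdh17 lies opposite to 9630013A20Rik.

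Further genes, also chosen after their values were seen, differed in the same direction in each mouse without passing 4-fold in each. Opalin, a myelin glycoprotein, had a UMI in 0 of 6, 8 of 33 and 0 of 5 nuclei with Klk6 of mice 1, 2 and 3. Without Klk6 it had a UMI in 28 of 45, 65 of 116 and 6 of 15 nuclei. Il33, a nuclear cytokine, had a UMI in 0, 5 and 0 of the same nuclei with Klk6 and in 18, 60 and 3 of those without. Of the 500 nuclei per mouse taken from the largest neuron cluster, Il33 had a UMI in 4.8%, 4.8% and 3.0%, and Opalin in 0.4%, 0.4% and 0%. Mal was at 1098, 897 and 570 CPM with Klk6 and at 2581, 2137 and 1168 CPM without. In the other direction, Enpp6, a choline phosphodiesterase, was at 510, 271 and 302 CPM with Klk6 and at 47.5, 60.6 and 158 CPM without. Robo1, a receptor of Slit proteins, was at 1020, 609 and 1174 CPM with and at 127, 220 and 432 CPM without. Hapln2 was at 1334, 571 and 1006 CPM with and at 368, 329 and 326 CPM without, and Anln, a scaffold of septin filaments, was also higher with Klk6 in each mouse. Mog was at 2589, 1512 and 1408 CPM with Klk6 and at 2217, 1654 and 1589 CPM without, so its direction differed among mice. Mbp was at 4433, 4166 and 4862 CPM with and at 6026, 4511 and 5010 CPM without. These levels rest on 25492, 180510 and 29822 UMIs in nuclei with Klk6, and mouse 1 and mouse 3 had 6 and 5 such nuclei. Without mouse 2, 14 genes were 4-fold lower and 4 higher.

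**Figure D5:**
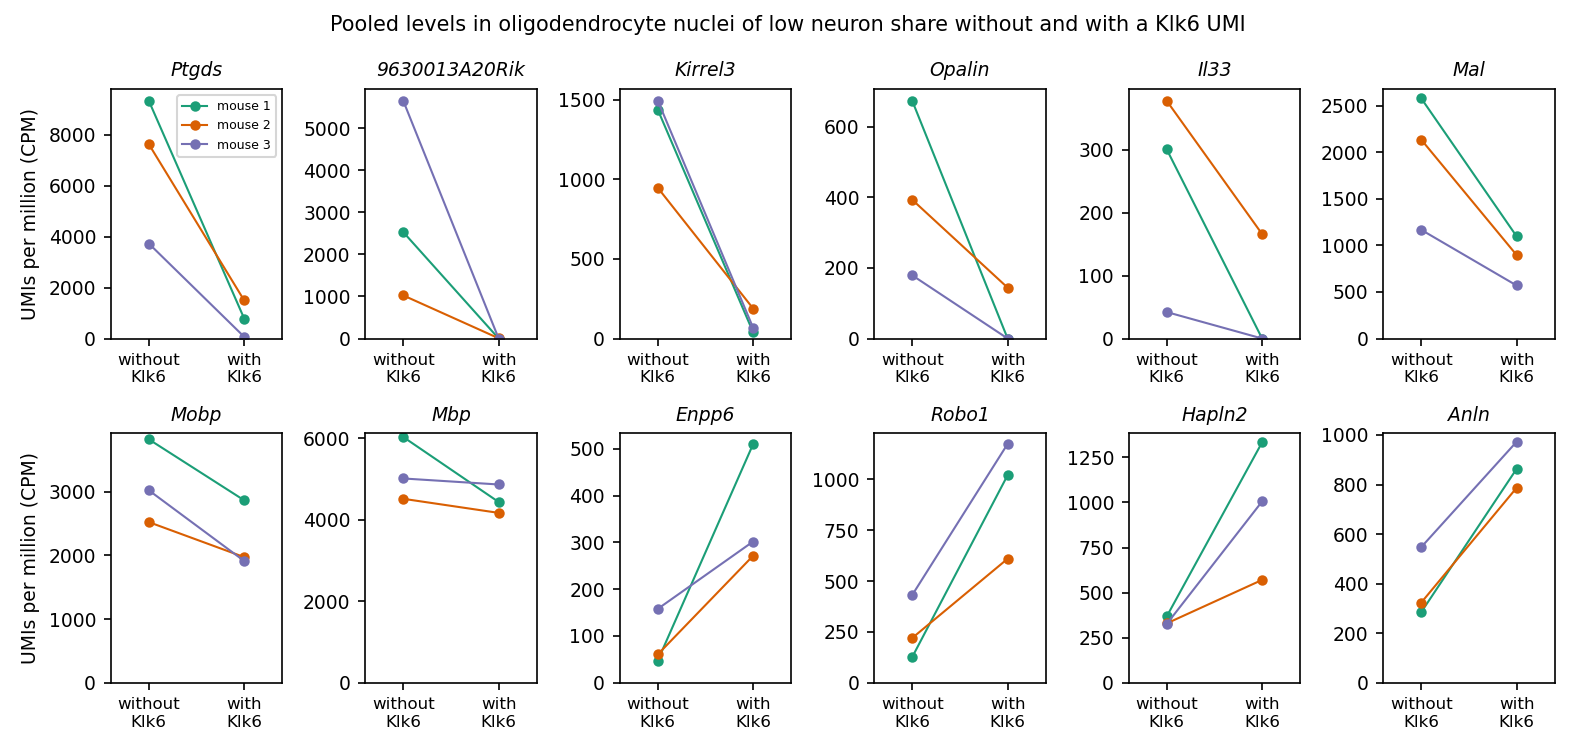
Level in CPM of 12 genes in the oligodendrocyte nuclei of low neuron share, summed per mouse, without and with a UMI of Klk6; each line is 1 mouse. Ptgds, 9630013A20Rik and Kirrel3 are lower with Klk6 in each mouse and Enpp6, Robo1, Hapln2 and Anln higher, and Mbp is at 4166 to 4862 CPM with and 4511 to 6026 CPM without Klk6.

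The barcodes that the authors had called as nuclei but not retained took no part in the clustering. They were searched with 10 genes that included Mog, Mag and Mobp, so the other genes compared in them come from new barcodes but not from a choice that is independent of the rule, and genes that occur together with the 10 are favoured by it. There were 1873, 8724 and 2123 of them in mice 1, 2 and 3, nearly all with under 1000 genes. Barcodes were taken as marker-positive where 10 oligodendrocyte genes (Mog, Mag, Mobp, Ermn, Opalin, Aspa, Ugt8a, Hapln2, Cldn11 and Prr5l) made up at least 2648 CPM, with at least 3 UMIs of 2 genes. This found 12, 46 and 4 barcodes, a mean share of 0.452% ± 0.235 (SD, n = 3), and the cut was the 5th percentile of the nuclei of the cluster, so that 267 of its 282 met the criterion by construction. In retained nuclei the share past the same cut was 0.844% ± 0.358. Of these 290 nuclei, 267 were in the oligodendrocyte cluster and 13 in the precursor-like cluster. The minimum of 3 UMIs asks for a larger share in barcodes with few UMIs. The median was 788, 732 and 808 UMIs in the unretained barcodes of mice 1, 2 and 3 that were not marker-positive. The retained and unretained shares were therefore not taken at equal depth, and nothing is read from their difference. The marker-positive barcodes held only 8920, 40562 and 2865 UMIs.

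Myelin genes outside the 10 were frequent in these barcodes. Mbp had 34, 24 and 14 UMIs in the marker-positive barcodes of mice 1, 2 and 3, against 303, 1191 and 185 UMIs in the others, which held 1978647, 7024568 and 2221231 UMIs. Cnp, an enzyme of the myelin channels, had 34, 26 and 13 UMIs, against 161, 464 and 67. Of the 14 genes of myelin structure that could be tested outside the 10, 13 had a positive log2 fold change, as 1513 of all 9209 genes tested had. The medians were 2.42 and -1.05. None of the 14 passed the test of edgeR. Its quasi-likelihood fit gave adjusted p = 0.16 for Cnp (log2 fold change 3.84 ± 1.12 SE) and 0.221 for Mbp (2.67 ± 1.08).

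Over all genes, 6 were higher at an adjusted p under 0.05 and a log2 fold change above 1 (0.0652%) and none was lower (0%), while 1807 had an unadjusted p under 0.05. The 6 were St18, Parvb, Gjc3, Il1rap, Kndc1 and Il33, with log2 fold changes of 3.81, 3.63, 3.31, 3.25, 3.19 and 3.11. Il1rap and Kndc1 were named after their values had been seen. Parvb and Gjc3 were higher in each mouse, but on 3, 2 and 1 UMIs and on 6, 1 and 2 UMIs in the marker-positive barcodes. The others had no UMI in the 4 barcodes of mouse 3. Of the 6 genes, 4 were enriched in the retained oligodendrocyte cluster and 2 were not, among them Parvb with a ratio of 1.70. The marker-positive and other barcodes of a mouse came from the same animal. With the mouse as a replicate block in the edgeR fit, no gene was called in either direction, while the log2 fold changes of Parvb, Gjc3 and St18 were 3.62, 3.26 and 4.01 (adjusted p = 0.525 for each). Scaling by library size in place of edgeR's TMM factors, which ran from 0.556 to 3.63, gave 45 genes higher and none lower. It also moved the median log2 fold change over all genes from -1.05 to -0.03, and the number with an unadjusted p under 0.05 from 1807 to 850. With the replicate block that number was 737. Over all alternatives run, it ranged from 301 without mouse 1 to 3061 with the cut at the 25th percentile.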

How the data were processed

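The deposited tables hold raw UMI counts per gene and barcode, 1 library per mouse, written by Cell Ranger 3.0.2 for the authors (per the file headers; GRCm38/mm10) and not normalized. The deposited table of retained nuclei gives each nucleus its mouse and cluster and the percent of mitochondrial UMIs that the authors computed. The authors had dropped nuclei under 1000 genes or over 5% mitochondrial UMIs, merged the mice and clustered them in Seurat. The members, gene lists and markers were chosen with earlier results of these data known.

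UMIs were summed per mouse and cluster and given as CPM (numpy 2.4.6, pandas 2.3.3). Genes with a mean of at least 10 CPM on either side were compared, 5 CPM was added, and a 4-fold difference in each mouse was counted. Named were list members, the 20 largest ratios among enriched genes highest in the cluster in each mouse, the 10 highest CPM, 5 lower genes, 5 per direction against the precursor-like cluster, and 5 per direction among genes called outside the retained nuclei whose libraries did not overlap (2 met this). Overlapping genes are named where the annotation has them. Rian and Sox2ot were not matched. Some genes are not reported here. Unretained barcodes were tested with edgeR 4.0.16 (filterByExpr, TMM, quasi-likelihood, Benjamini-Hochberg; R 4.3.3), with DESeq2 1.42.0 as an alternative. Tested on simulated data for this comparison, the edgeR step called 97 of 100 genes raised 8-fold and 47 of 100 lowered 8-fold, and 5 of 9424 unchanged genes, of 9624. The changed genes were drawn from the most abundant ones, with a fixed spread and no difference between mice. These rates may therefore not hold for the real barcodes. Same-mouse libraries come from the same animal, and their deviations from the group means correlated at 0.09, 0.18 and 0.06 over 9216 genes. Between libraries of different mice the correlations ran from -0.19 to 0.07, so the value of mouse 3 lay within that range. Promoter windows are those of RefSeq (GRCm38.p6). Depth was 58526996, 213891496 and 62929479 UMIs in the retained nuclei of mice 1, 2 and 3.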

Additional observations from a re-analysis of the deposited data

How the results depend on the processing

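The number of enriched genes stayed between 282 and 361 under every alternative run, and the number higher than in the precursor-like cluster between 180 and 259. The 66 genes below the other clusters became 225 with 1 CPM added in place of 5, 23 against the pooled UMIs of all other nuclei (11 of the 66 among them), 229 without the tenth of nuclei with the most UMIs, 642 without the nuclei of high neuron share, and 74 to 730 with each mouse left out; without mouse 2 they were 730. The 187 genes lower than in the precursor-like cluster became 316 with 1 CPM added, 363 without the nuclei of high neuron share, and 224 to 425 with each mouse left out (425 without mouse 2). The alternatives with the neuron share and those on Klk6 were chosen after seeing the data. With the nuclei of high neuron share kept, 1 gene was 4-fold lower with Klk6 in place of 3. With each mouse left out, 3 to 14 genes were lower and 0 to 4 higher (14 and 4 without mouse 2). The cause of these shifts was not tested.

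In the unretained barcodes, the 6 higher genes became 23 with DESeq2, 45 with library size scaling, 0 with the replicate block, 12 with the cut at the 25th percentile, and 0 to 25 with each mouse left out (25 without mouse 2, 0 without mouse 1 or mouse 3). The lower genes, 0 with edgeR, became 37 with DESeq2, 298 with the cut at the 25th percentile, 7 with 2 more genes added to the 10, and 0 to 517 with each mouse left out (517 without mouse 2). With 2865 UMIs in the 4 marker-positive barcodes of mouse 3, 1 UMI there stands for 349 CPM.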

Other observations

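Transferrin, Trf, is known as a gene of oligodendrocytes. It had no UMI in the cluster in any mouse and was at 0 CPM in every cluster. The gene model Gm20425 lies over Trf on the same strand, and Gm43738 over Fdps, which had 0.539 CPM in its highest cluster. Whether the counting of reads in overlapping gene models accounts for these values was not tested. Klk6 and Ptgds were inversely related across nuclei in each mouse, as a description, with Spearman correlations across nuclei of low neuron share of -0.45, -0.49 and -0.63 in mice 1, 2 and 3 (51, 149 and 20 nuclei of 1 library each). Klk6 had no UMI in 45, 116 and 15 of these nuclei, so the correlations largely repeat the split by Klk6. Over the 220 nuclei together the Pearson correlation was -0.25 and the Spearman correlation -0.51.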
